A study of Mus musculus with 12 samples.

Results

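Mitochondrial ribosomal proteins were followed across 12 bulk RNA-seq libraries of mouse cortex and cultured neural progenitor cells. The members were all genes of the count table whose symbol is Mrpl or Mrps followed by a number and at most 1 letter, which gave 77 of 34102 genes. Of these, 48 carry a large-subunit name (Mrpl) and 29 a small-subunit name (Mrps). The rule uses symbols and no measured value, but it was chosen with earlier results of these data known. The study compared loss of Srsf10, an SR protein that takes part in splicing, with controls in 2 systems, in 4 groups of 3 libraries.

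All mice were C57BL/6. The cortex controls were Srsf10 flox/flox without Nestin-Cre, and the mutants, labelled cKO, were Srsf10 flox/flox with Nestin-Cre, a transgene that makes Cre recombinase in neural progenitors and in the cells they form. Both cortex groups thus carry the floxed allele, and no group carries Nestin-Cre alone, so an effect of the transgene and loss of Srsf10 cannot be told apart. The NPC libraries came from primary cultures of progenitors from cortex, labelled WT or SRSF10 knockdown. The knockdown was by lentivirus at a multiplicity of 30, with RNA taken 72 h after infection, and the labels do not say which virus the WT cells received. Ages of the mice, and whether each library is a separate animal or culture, are not stated in the labels, so the p-values measure the spread between these libraries, which may be technical.

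The mitochondrial ribosome translates the messenger RNAs of the mitochondrial genome, which encode core subunits of the respiratory chain and of ATP synthase. Its ribosomal RNAs come from mitochondrial DNA, while all its proteins are encoded in the nucleus and imported. Many of these proteins have counterparts in bacterial ribosomes, and the others were gained in the mitochondrial lineage. By a list kept beside the rule, 48 members have a bacterial counterpart and 29 are mitochondria-specific. The list counts Mrpl55 with the former, although its protein is mitochondria-specific. The names do not always match the place of the protein. Mrps30 and Mrps18a sit in the large subunit, and Mrps36 encodes a part of the 2-oxoglutarate dehydrogenase complex, an enzyme of the citric acid cycle. In brain, mitochondrial translation is known from inherited diseases such as Leigh syndrome, in which members of this family can be mutated.

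The sequences below belong to the 5 members that passed the test in NPC, and are shown because the results turn on these genes. Each runs from 100 bases before to 50 bases after a RefSeq transcription start (build GRCm38.p6), 5′ to 3′ on the strand of the gene. Capitals mark matches on either strand to 4 motifs of factors known from genes of mitochondrial proteins or of cell growth, namely TGCGCA (NRF1), CCGGAAG (ETS factors such as GABP), AAGATGGC (YY1) and the E-box CACGTG.
Mrpl34, chr8:71464826-71464975, plus strand: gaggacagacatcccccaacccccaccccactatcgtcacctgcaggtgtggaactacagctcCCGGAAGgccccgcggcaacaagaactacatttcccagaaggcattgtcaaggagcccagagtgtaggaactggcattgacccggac
Mrpl50, chr4:49521034-49521183, minus strand: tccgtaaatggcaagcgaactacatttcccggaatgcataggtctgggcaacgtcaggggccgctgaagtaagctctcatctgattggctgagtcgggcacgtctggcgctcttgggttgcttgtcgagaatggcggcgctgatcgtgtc
Mrps27, chr13:99344686-99344835, plus strand: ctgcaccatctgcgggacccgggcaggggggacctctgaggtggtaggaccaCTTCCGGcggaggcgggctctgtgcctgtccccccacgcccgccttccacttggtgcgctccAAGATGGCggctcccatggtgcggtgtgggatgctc
Mrpl18, chr17:12916042-12916191, minus strand: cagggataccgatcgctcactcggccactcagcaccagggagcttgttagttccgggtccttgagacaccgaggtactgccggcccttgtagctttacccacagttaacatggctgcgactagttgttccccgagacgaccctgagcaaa
Mrpl46, chr7:78783040-78783189, minus strand: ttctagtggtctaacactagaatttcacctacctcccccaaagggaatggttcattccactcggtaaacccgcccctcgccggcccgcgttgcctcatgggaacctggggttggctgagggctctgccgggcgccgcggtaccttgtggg

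Among these 5 windows, Mrpl34 holds an ETS match and Mrps27 holds an ETS and a YY1 match. RefSeq windows of 250 bases before to 50 after the start were at hand for 69 of the 77 members (75 windows). The ETS letters stood in 34.7% of the 75 windows, against 16.0% of 13769 windows of all genes tested in NPC. The NRF1 letters stood in 29.3% against 13.0%, and the YY1 letters in 16.0% against 4.06%. The E-box was as frequent in both, at 9.33% and 9.52%. None of the motifs overlaps another by its letters in the printed windows. A match describes the letters and does not show that a factor binds there.

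Members lay on 17 chromosomes, and exons of 45 overlap no exon of another gene (GENCODE release M21, mm10). For 27 members exons overlap a gene on the opposite strand and for 8 a gene on the same strand. The labels do not state whether reads were counted by strand, so counts of these members may hold reads of the neighbour. The largest overlaps lie in Mrpl53, with 88.0% of its exonic bases shared with the gene model Gm42688 on the same strand, in Mrps25, with 69.8% opposite Nr2c2, and in Mrps34, with 63.4% opposite Mapk8ip3 and 37.0% shared with Nme3.

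The libraries held 26074094 to 36713205 counts. Srsf10 itself stood at 186 to 220 CPM (CPM, a library's counts scaled to a fixed total, with TMM factors over all 12 libraries, the scale of all levels below) in the libraries labelled cKO and at 196 to 215 CPM in cortex controls. In NPC it stood at 220, 224 and 240 CPM in the libraries labelled knockdown and at 227, 230 and 253 CPM in controls. By the quasi-likelihood test of edgeR the log2 fold change was 0.03 (SE 0.08, adjusted p = 0.917) in cortex and -0.05 (SE 0.05, adjusted p = 0.530) in NPC pairs. The transcript count thus showed no fall that passed the test in either group labelled as depleted. By NPC pair it went from 253 to 240, from 230 to 224 and from 227 to 220 CPM. A gene-wide count is blind to a deleted exon and to the protein, and groups are named by their labels throughout. The summed level of 5 neuronal markers (Tubb3, Dcx, Tbr1, Stmn2 and Neurod6) ran from 7303 to 7585 CPM in cortex and from 17.7 to 25.4 CPM in NPC, and that of 5 progenitor markers (Nes, Sox2, Pax6, Vim and Hes1) from 5544 to 6717 CPM in NPC. In bulk tissue, fewer cells of a type and less RNA per cell cannot be told apart.

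As a whole, the members took a small share of the RNA. Their summed level was 2514, 2148 and 2264 CPM in cortex controls and 2116, 2152 and 2263 CPM in the libraries labelled cKO. In NPC it was 3364, 3417 and 3298 CPM in controls and 3350, 3515 and 3539 CPM in the libraries labelled knockdown. The groups overlapped in both systems, and control cortex replicate 1 stood apart from its 2 partners by more than the means of the cortex groups differed. The means were 2309 ± 187 and 2177 ± 76.5 CPM in cortex and 3360 ± 59.4 and 3468 ± 103 CPM in NPC (SD, n = 3 each). As a share of all counts they were 0.232% ± 0.0164 and 0.223% ± 0.0111 in cortex, and 0.329% ± 0.00866 and 0.343% ± 0.00821 in NPC (control and labelled group, SD, n = 3).

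**Figure D1:**
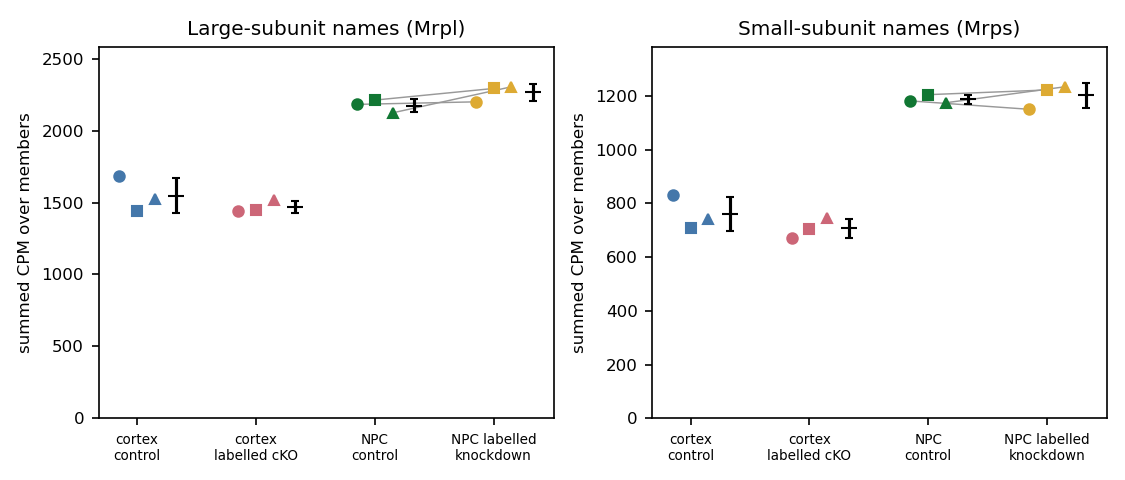
Summed level in CPM (vertical axis, from 0) of the 48 members with large-subunit names (left) and the 29 with small-subunit names (right) in each library of the 4 groups; symbols mark replicate numbers, grey lines join same-numbered NPC libraries and black bars are mean ± SD of 3 libraries. The control and labelled groups overlap in each system and for both kinds of name, and NPC libraries lie above all cortex libraries.

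Levels of single members differed widely per length. Divided by the length of the principal protein-coding transcript, the median member stood at 19.4 CPM per kb in control cortex and 29.5 CPM per kb in control NPC. Mrpl52 was highest in control cortex, at 114 ± 30.3 CPM per kb, followed by Mrpl20 (88.2 ± 9.39), Mrps21 (71.2 ± 10.1), Mrpl30 (60.0 ± 6.52) and Mrpl42 (58.3 ± 7.90; SD, n = 3). The ranges of mean ± SD of neighbours in this order overlapped. Orders per kb depend on the transcript length taken for each gene. Before division by length, Mrpl52 (418 bases) stood at 47.7 CPM in control cortex and Mrpl50 (2114 bases) at 76.9 CPM. In control NPC the order was led by Mrpl42 (122 ± 1.86 CPM per kb), then Mrps21 (91.1 ± 5.80), Mrpl20 (82.8 ± 2.99), Mrpl52 (81.3 ± 1.83) and Mrpl12 (65.4 ± 2.38), which encodes a stalk protein that also binds the mitochondrial RNA polymerase. Here the range of Mrpl42 lay above that of Mrps21, and that of Mrpl52 above that of Mrpl12, while the ranges of Mrps21 and Mrpl20 overlapped, as did those of Mrpl20 and Mrpl52. At the low end, Mrps26 (7.10 ± 0.591), Mrpl19 (7.59 ± 0.486), Mrps25 (7.61 ± 0.172) and Mrpl35 (7.64 ± 0.632) had similar values per kb in control NPC, all with long annotated transcripts of 3721 to 6073 bases. In control cortex the lowest were Mrpl40 (0.309 ± 0.252), Mrps18b (0.842 ± 0.321), Mrps23 (0.887 ± 0.574), Mrpl22 (2.84 ± 0.561) and Mrpl17 (3.99 ± 0.375). For Mrpl17 a transcript of 7300 bases was taken, and its level before division was 29.1 CPM.

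A few members stood at or near 0 counts in 1 of the systems. Mrpl53 had 732, 553 and 682 counts in cortex controls and 583, 516 and 673 in the libraries labelled cKO, but 0 in all 6 NPC libraries. Set against a floor of 3 counts over the control NPC libraries, it was at least 506-fold lower there. Mrpl40 showed the opposite pattern, with 4 to 28 counts in each cortex library and 805 to 973 in each NPC library. Mrps23 (19 to 75 counts in cortex, 1353 to 1948 in NPC), Mrps18b (17 to 42 and 713 to 906), Mrpl22 (57 to 102 and 955 to 1150) and Mrpl23 (65 to 125 and 688 to 821) were likewise almost bare in cortex. Mrpl22 and Mrpl23 encode proteins at the tunnel through which the nascent chain leaves the ribosome. For a protein of a shared particle such gaps are large, and whether cortex and NPC reads were counted in the same way was not tested, so they are given as counts and not read as expression.

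The 3 mouse copies of a single bacterial protein family, Mrps18a, Mrps18b and Mrps18c, show how uneven these levels were. In control cortex and in control NPC, Mrps18a had a level of 33.1 ± 5.13 and 40.1 ± 2.68 CPM (SD, n = 3). Mrps18b stood at 0.909 ± 0.346 and 29.1 ± 1.56 CPM, and Mrps18c at 33.9 ± 5.52 and 5.26 ± 0.513 CPM. The counts of Mrps18b and Mrps18c thus differed in opposite directions between the systems, in genes for which overlap is annotated with Gm16279 on the opposite strand (Mrps18b, 30.5% of exonic bases) and Gm43511 on the same strand (Mrps18c, 23.2%).

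Control NPC against control cortex placed 57 members higher and 7 lower of 77 by edgeR (adjusted p under 0.05), against 38.4% of 15676 genes higher and 40.5% lower. The median log2 fold change of the members was 0.59, against -0.03 over all genes tested. Like families also lay higher in NPC. Of 84 cytosolic ribosomal protein genes 67 were higher and 6 lower (median 1.18). Of 77 respiratory chain genes 57 were higher and 6 lower (median 0.67). Leaving out the 6 members under 5 CPM in the controls of 1 system, 52 of 71 were higher and 6 lower, with a median of 0.57. Over these 71 members the per-kb levels of both control groups followed each other (Spearman correlation 0.81, a description across genes that share libraries and gene lengths). The 6 members left out were those that differed most between the control groups, so the correlation does not cover them. Mrps18c (log2 fold change -2.70, SE 0.15), Mrpl33 (-1.97, SE 0.13), Mrpl11 (-0.63, SE 0.09) and Mrpl52 (-0.50, SE 0.16) were the largest falls after Mrpl53. Tissue, culture, infection and any difference in how reads of the systems were counted cannot be told apart in this comparison, so these are differences in counts and are not read as expression.

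**Figure D2:**
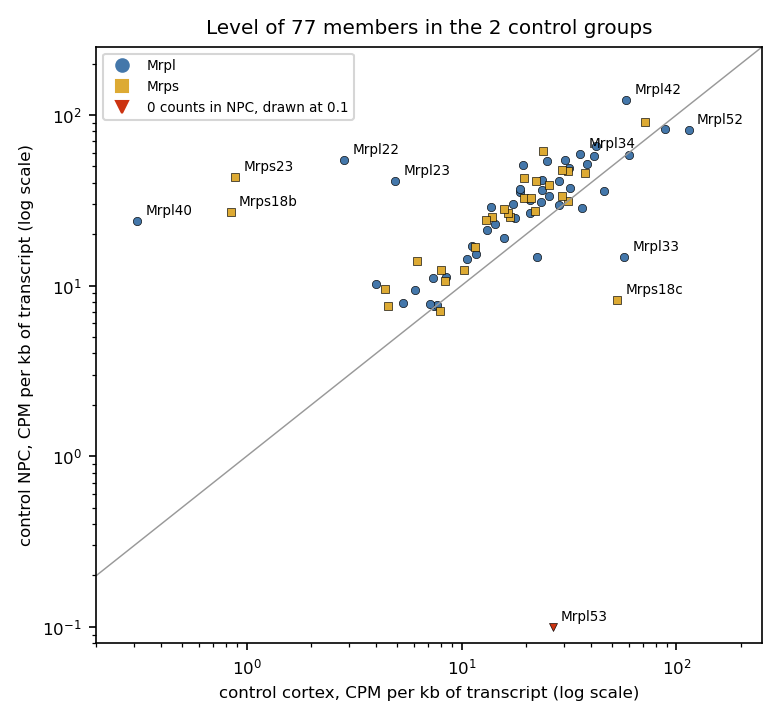
Mean level of each of the 77 members in control cortex (horizontal axis) and control NPC (vertical axis), in CPM per kb of transcript on log scales, with the line of equal level; circles are Mrpl, squares Mrps, and the triangle is Mrpl53, at 0 counts in NPC and drawn at 0.1. Most members lie above the line, Mrpl40, Mrps18b and Mrps23 lie far to the left of the others, and Mrps18c and Mrpl33 lie far below the line.

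Cortex labelled cKO showed no called change in any member. Of 76 tested members 0 rose and 0 fell by edgeR at an adjusted p under 0.05, against 0.0380% of 15781 genes higher and 0.133% lower, so the background itself was near 0. DESeq2 called 0 members too, and 2.28% of all genes it tested. At an unadjusted p under 0.05, 6 members were lower and 0 higher (background 5.53% and 5.36%). The members leaned to one side, with 58 negative and 18 positive values and a median log2 fold change of -0.08, against 0.0034 over all genes. The lean was alike in large-subunit names (36 of 47 negative, median -0.08) and small-subunit names (22 of 29, -0.09), and in members with a bacterial counterpart (36 of 48) and mitochondria-specific ones (22 of 28). Members whose groups did not overlap numbered 13, all lower in the libraries labelled cKO, where 9.52% of all genes lay wholly lower and 7.76% wholly higher.

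The size of that lean depended on single control libraries. Control cortex replicate 1 was the highest of the 6 cortex libraries for 47 of the 76 members, and its median member stood 0.12 (log2) above the control mean. Without it 43 of 77 members were negative and the median was -0.03, while without control replicate 2 the count was 68 of 77 and the median -0.13. Erythroid genes were highest in the same library, with a summed level of 45.7 CPM against 8.57 to 17.1 CPM in the other 5, and 5 of 5 erythroid markers were detected in both cortex groups. The choroid plexus gene Ttr stood at 1194 CPM in control replicate 2 and 1082 CPM in the library labelled cKO replicate 3, against 2.35 to 100.3 CPM in the other 4. Without these 2 libraries the median was -0.18. Markers of meningeal fibroblasts summed to 24.8 CPM in control replicate 2 and to 127 to 254 CPM in the other 5. The part of these cells in the lean was not tested. The Y-linked gene Ddx3y stood at 0, 104 and 101 CPM in controls and at 0.0915, 0.0295 and 110 CPM in the libraries labelled cKO, so control replicate 1 was the only control without it, against 2 of the 3 labelled libraries. In a fit with a term for sex, taken from Ddx3y at a limit of 10 CPM, the median was -0.09 and 61 of 76 members were negative.

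The members with the smallest p in cortex were low in all 3 libraries labelled cKO or nearly so. Mrps34, a small-subunit gene mutated in Leigh syndrome, stood at 28.7, 24.9 and 26.7 CPM in controls and 22.6, 17.2 and 22.6 CPM in the labelled group. These groups do not overlap (log2 fold change -0.36, SE 0.12, adjusted p = 0.318 by edgeR), in a gene of which most exonic bases lie opposite Mapk8ip3. Mrpl37, a mitochondria-specific protein of the large subunit, stood at 49.5, 40.8 and 45.5 CPM in controls and 39.4, 36.1 and 39.0 CPM in the labelled group, also without overlap (-0.24, SE 0.10, adjusted p = 0.394). Mrpl55, of the large subunit, stood at 18.6, 14.1 and 17.1 CPM in controls and 10.7, 14.8 and 11.7 CPM in the labelled group, where replicate 2 lies above the lowest control (-0.42, SE 0.15, adjusted p = 0.340). The positive values with the smallest p were those of Mrpl17 (0.19, SE 0.10, adjusted p = 0.520), Mrps6 (0.15, SE 0.10, adjusted p = 0.618) and Mrps33 (0.09, SE 0.09, adjusted p = 0.756). None of these 6 passed the test.

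In NPC labelled knockdown, 1 member fell strongly and 4 rose by small amounts when the same-numbered libraries were taken as pairs. The fall was in Mrpl34, and the rises in Mrpl50, Mrps27, Mrpl18 and Mrpl46. Against 76 tested members, 4 rises and 1 fall compare with 11.9% of 14258 genes called higher and 12.8% called lower, shares that the members' counts did not exceed. Without the pairs Mrpl34 alone passed, against a background of 0.351% higher and 1.54% lower.

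Mrpl34 encodes a small protein of the large subunit with a bacterial counterpart. The gene lies at chr8:71464959-71465747 on the plus strand (mm10), with 2 exons and no exon overlap with another gene. It stood at 35.5, 35.4 and 36.1 CPM in NPC controls and 14.2, 9.64 and 12.8 CPM in the libraries labelled knockdown. Each control was thus well above each labelled library, and the controls lay within 1 CPM of each other. The means were 35.7 ± 0.396 and 12.2 ± 2.33 CPM (SD, n = 3), and in pairs it fell by 1.55 on the log2 scale (SE 0.10, adjusted p = 5.03e-07 by edgeR). The 95% interval ran from -1.77 to -1.34. Without pairs it was -1.54 (SE 0.14, adjusted p = 0.00555). By pair the difference was -1.30, -1.82 and -1.46 on the log2 scale (0.5 CPM added). In cortex Mrpl34 stood at 25.3, 18.7 and 21.02 CPM in controls and 19.0, 19.1 and 21.9 CPM in the libraries labelled cKO, groups that overlap (-0.11, with a 95% interval from -0.39 to 0.18, SE 0.13, adjusted p = 0.803 by edgeR).

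Mrpl50, a mitochondria-specific protein of the large subunit, had the smallest p among the rises. It stood at 60.8, 61.0 and 58.8 CPM in controls and 67.9, 80.1 and 75.9 CPM in the libraries labelled knockdown, with no overlap. Its paired log2 fold change was 0.31 (95% interval from 0.19 to 0.44, SE 0.06, adjusted p = 0.00183 by edgeR; without pairs adjusted p = 0.0869). Mrps27, a small-subunit protein with pentatricopeptide repeats, a fold that binds RNA in many organelle proteins, stood at 48.5, 50.1 and 40.4 CPM in controls and 61.2, 57.9 and 52.2 CPM in the labelled group. Replicate 3 was the lowest in both groups, so the pairs moved together (0.31, SE 0.06, adjusted p = 0.00207; without pairs adjusted p = 0.194).

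Mrpl18 encodes a large-subunit protein whose bacterial counterpart binds the smaller ribosomal RNA of that subunit. Its levels were 66.3, 64.2 and 59.3 CPM in controls and 76.0, 77.00 and 70.5 CPM in the libraries labelled knockdown, with no overlap (0.24, SE 0.05, adjusted p = 0.00467 by edgeR with pairs and 0.147 without). Mrpl46, a mitochondria-specific protein, stood at 21.9, 20.3 and 22.3 CPM in controls and 25.7, 25.2 and 26.4 CPM in the labelled group, also without overlap (0.27, SE 0.07, adjusted p = 0.0162 with pairs and 0.137 without). Exons of Mrpl46 share 173 bases with those of the head-to-head neighbour Mrps11, a small-subunit gene that had -0.05 (SE 0.06, adjusted p = 0.610). Overlap on the opposite strand is also annotated for Mrps27, with 6430562O15Rik (506 bases, 24.2% of its exonic bases), and for Mrpl18, with Tcp1 (141 bases, 10.1%). Mrpl50 has none. The part of the neighbours' reads in these rises was not tested. In cortex the values of the 4 members that rose in NPC lay between -0.09 (Mrpl18) and 0.03 (Mrpl50), and none passed.

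**Figure D3:**
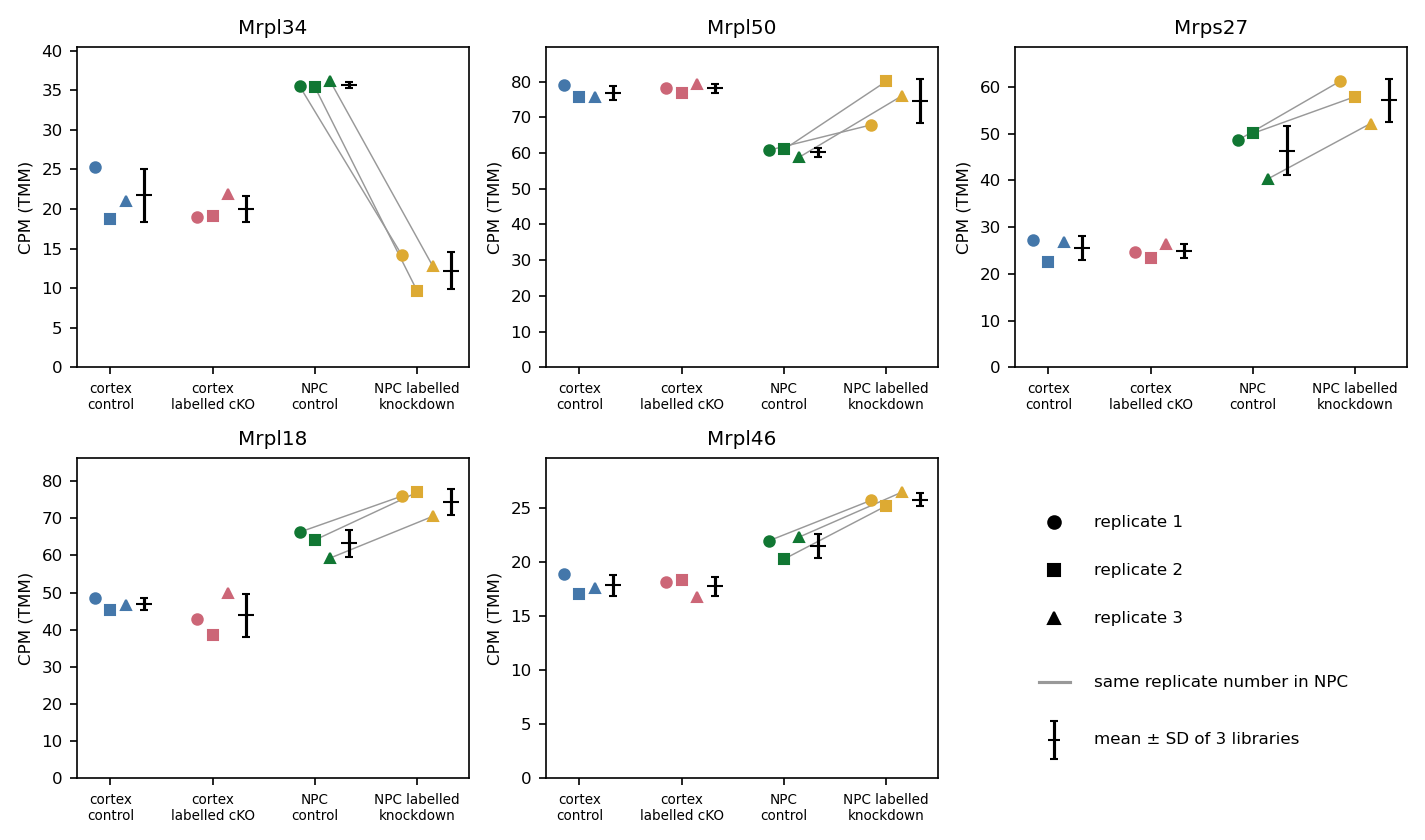
Level in CPM (vertical axis, from 0) of the 5 members called in NPC in each of the 12 libraries; symbols mark replicate numbers, grey lines join same-numbered NPC libraries and black bars are mean ± SD of 3 libraries. Mrpl34 falls from 35.7 to 12.2 CPM in NPC while its cortex groups overlap, and the other 4 are higher in every labelled NPC library than in any NPC control.

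The other members were close to 0 in NPC, between -0.15 and 0.22 on the log2 scale. The paired median was 0.04, against 0.0033 over all genes, with 50 of 76 members positive. At an unadjusted p under 0.05, 17 members were higher and 3 lower with pairs (background 18.0% and 17.8%). Large-subunit names were positive in 34 of 47 (median 0.08) and small-subunit names in 16 of 29 (median 0.02). Mrpl38 had -0.13 (SE 0.05, adjusted p = 0.103) and Mrpl43 had -0.15 (SE 0.06, adjusted p = 0.110), the next lowest p among negative values. Groups did not overlap for 13 members wholly higher and 2 wholly lower in the libraries labelled knockdown, where 10.1% of all genes lay wholly higher and 13.4% wholly lower.

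The members' values in NPC were highest in pair 3. The median member differed by -0.0072 in pair 1, 0.022 in pair 2 and 0.11 in pair 3, and 36, 42 and 63 of 76 members were positive. The median of all genes in the same pairs was -0.015, 0.0083 and -0.0050. Without pair 3 the test called Mrpl34 alone, against 11.4% of all genes. Without pair 1 it called 14 of 76 members (18.4%), 13 of them higher, against 30.4% of all genes. With all pairs it called 5 of 76 members (6.58%), against 24.7% of all genes. Pair 3 is also the pair in which the Y-linked gene Ddx3y was detected, at 84.3 and 90.9 CPM against at most 0.294 CPM in the other 4 NPC libraries, and its part in the difference was not tested. Summed erythroid, microglial and choroid plexus markers stood below 2 CPM in each NPC library. The 5 vessel markers summed to 18.1, 15.2 and 20.0 CPM in NPC controls and to 9.66, 9.38 and 11.01 CPM in the libraries labelled knockdown, lower in each pair and with Cldn5 at 0 in the labelled group. The 5 markers of meningeal fibroblasts summed to 28.9 and 33.7 CPM in pair 2 and to 2.70 to 4.36 CPM in the other 4 NPC libraries. The part of these markers in the members' values was not tested.

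**Figure D4:**
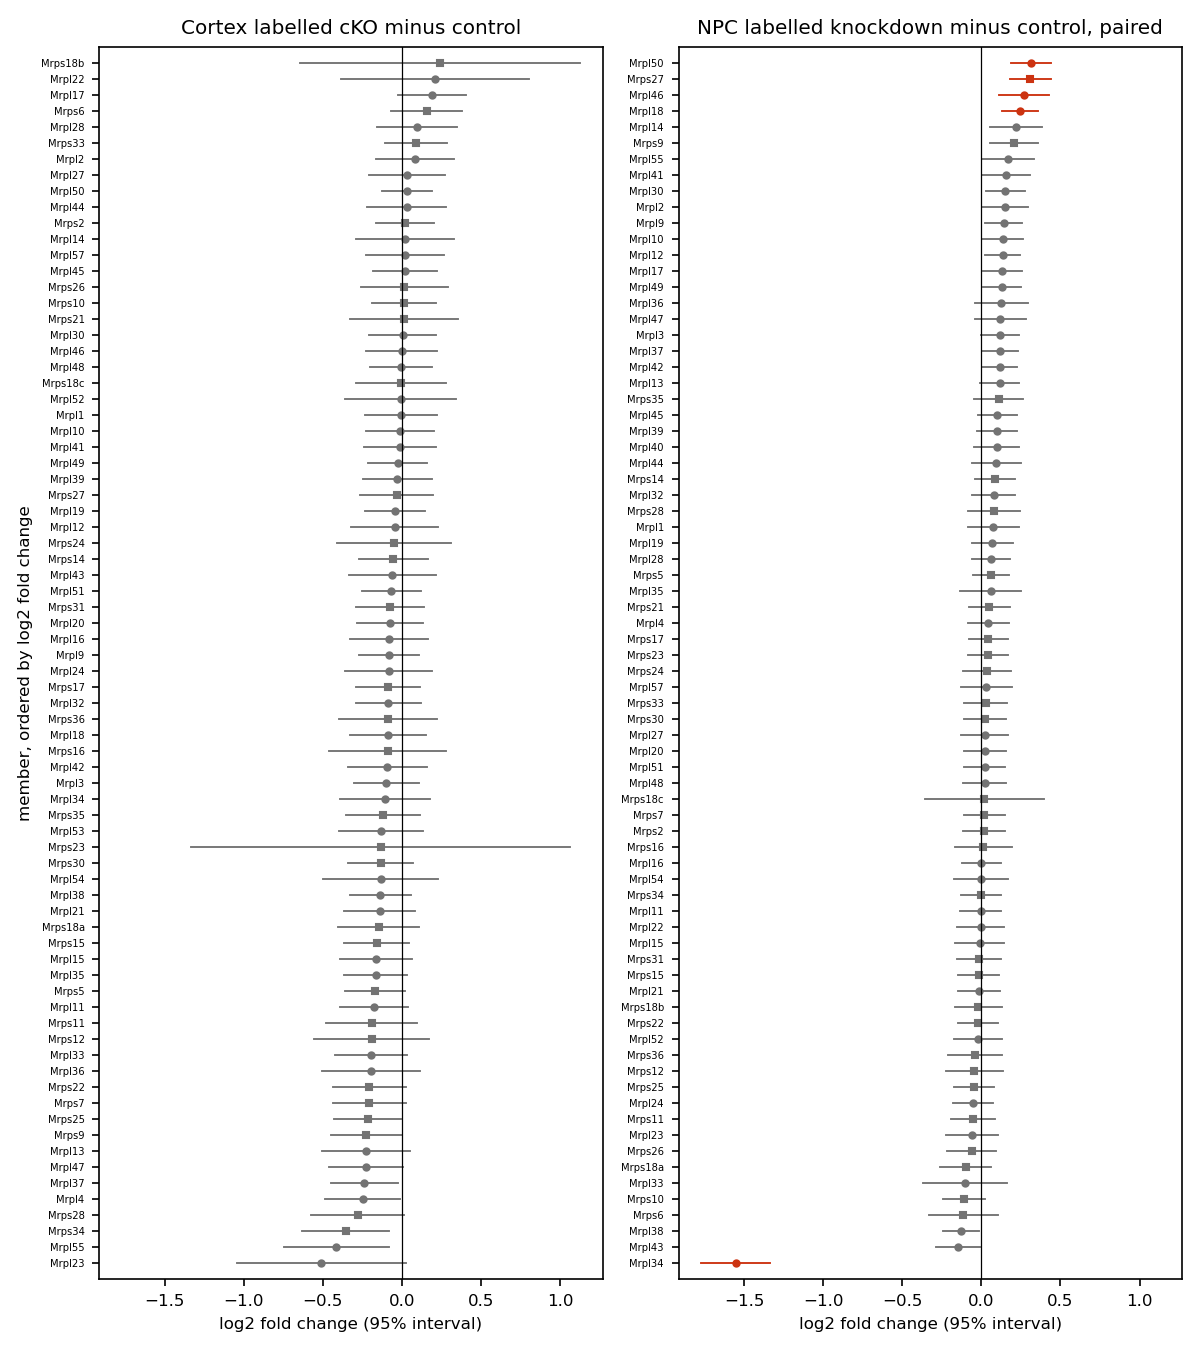
Log2 fold change of each tested member with its 95% interval (horizontal axis), ordered by value, in cortex (left) and in NPC pairs (right); circles are Mrpl, squares Mrps, and red marks members called at an adjusted p under 0.05. In cortex no member is red and 58 of 76 points lie left of 0, and in NPC Mrpl34 at -1.55 stands far from the other 75.

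The response of Mrpl34 differed between the systems by the test of the difference itself. The interaction contrast in 1 fit of all libraries gave -1.43 (95% interval from -1.84 to -1.03, SE 0.19, adjusted p = 0.00119 by edgeR). It was the only call among 75 members tested in both systems, against 2.91% of 13532 genes higher and 3.19% lower. The median over the members was 0.15, against 0.02 over all genes, and 64 of 75 were positive, which joins the negative lean of cortex and the positive one of NPC. Mrpl37 (0.37, SE 0.11, adjusted p = 0.0778), Mrpl50 (0.30, SE 0.09, adjusted p = 0.0889) and Mrpl55 (0.60, SE 0.19, adjusted p = 0.0981) had the smallest p among the positive values and did not pass. On the negative side Mrps6 (-0.26, SE 0.17, adjusted p = 0.465) and Mrpl22 (-0.20, SE 0.20, adjusted p = 0.657) came after Mrpl34. DESeq2 called 5 members in the same contrast, 4 of them higher, and 10.7% of all genes it tested.

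Mrps6 shares its start region with Slc5a3, a myo-inositol transporter gene that lies within it on the same strand (Mrps6 at chr16:92058270-92112227, Slc5a3 at chr16:92058322-92087473). Slc5a3 fell in both systems, from 36.7, 43.5 and 37.4 to 25.8, 25.5 and 21.6 CPM in cortex (log2 fold change -0.68, SE 0.11, adjusted p = 0.0394 by edgeR) and from 272, 210 and 267 to 150.1, 138 and 174 CPM in NPC (-0.69, SE 0.06, adjusted p = 2.83e-06 with pairs and 0.0430 without). Mrps6 did not follow it past the test. Its levels were 21.9, 18.5 and 20.2 CPM in cortex controls and 21.3, 22.8 and 23.0 CPM in the libraries labelled cKO. In NPC they were 53.8, 48.9 and 54.0 CPM in controls and 37.1, 47.3 and 61.9 CPM in the labelled group, with pair differences of -0.53, -0.05 and 0.20 (paired -0.11, SE 0.10, adjusted p = 0.460). The difference between the 2 genes was not tested.

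Members whose protein sits apart from their name did not stand out. Mrps30 had -0.13 (SE 0.09, adjusted p = 0.639) in cortex and 0.02 (SE 0.06, adjusted p = 0.817) in NPC pairs. Mrps18a had -0.15 and -0.10, and Mrps36, of the 2-oxoglutarate dehydrogenase complex, had -0.09 and -0.04, none past the test.

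Short sequences were also looked for in the 3′ UTRs of the members. The hexamers ACCGAC and CCGACT had been singled out in earlier work on these same NPC counts as frequent in genes that fell, so their presence in a gene that fell is no test. The search covered 76 members with an annotated 3′ UTR no shorter than 50 bases, on the strand of the gene, and 5 held a hexamer (6.58%), against 12.1% of 12693 genes tested in NPC. The sites are shown with the hexamer, or both where they overlap, in capitals (mm10).
Mrpl34, chr8:71465706-71465734, plus strand: tccaaagtattACCGACTtaataaatatt
Mrpl43, chr19:45005073-45005100, minus strand: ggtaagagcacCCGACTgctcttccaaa
Mrps14, chr1:160201258-160201285, plus strand: ggtaagagcacCCGACTtgctcttccga
Mrps26, chr2:130567413-130567440, plus strand: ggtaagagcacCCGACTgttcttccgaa
Mrps30, chr13:118379068-118379095, minus strand: tggccttgcttACCGACgtaggtagaaa

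Mrpl34 alone of the 5 holds both hexamers, overlapping as ACCGACT, 24 bases before the end of a 3′ UTR of 284 bases. The sites of Mrpl43, Mrps14 and Mrps26 share the 11 bases before the hexamer, ggtaagagcac, and lie 255 to 1266 bases from the end of longer 3′ UTRs. The other 4 genes did not fall past the test in NPC pairs, with -0.15 in Mrpl43 (adjusted p = 0.110), 0.09 in Mrps14 (adjusted p = 0.318), -0.06 in Mrps26 (adjusted p = 0.603) and 0.02 in Mrps30 (adjusted p = 0.817). Whether the letters or the place of the site bear on the fall was not tested.

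Other genes of mitochondrial translation that were called in NPC pairs moved in both directions, against the same background of 11.9% higher and 12.8% lower. Of 20 genes of mitochondrial aminoacyl-tRNA synthesis, whose enzymes load tRNAs for this ribosome, 5 rose and 1 fell. Nars2 (0.42, SE 0.08), Lars2 (0.26, SE 0.06), Tars2 (0.18, SE 0.06) and Mars2 (0.17, SE 0.06) were among the rises and Aars2 (-0.23, SE 0.07) was the fall, with adjusted p from 0.00135 to 0.0421. None of the genes named here passed without pairs. At an unadjusted p under 0.05 by edgeR with pairs, 9 of the 20 were higher and 1 lower (background 18.0% and 17.8%). Of 25 genes of ribosome assembly and rRNA modification, 1 rose and 3 fell. Noa1, a GTPase of small-subunit assembly, fell by 0.51 (log2, SE 0.07, adjusted p = 2.93e-04 with pairs and 0.0340 without). Mrm1, an rRNA methyltransferase, had -0.49 (SE 0.13), Mterf3 -0.18 (SE 0.06) and Gtpbp10, a GTPase of large-subunit assembly, 0.26 (SE 0.06), and none of these 3 passed without pairs (adjusted p from 0.111 to 0.240 by edgeR). Of 15 translation factor genes 0 were called (1 higher and 0 lower at an unadjusted p under 0.05 by edgeR).

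Aurkaip1, a small-subunit protein without an Mrp name, fell by 0.21 (log2, SE 0.06, adjusted p = 0.0260) among 6 genes of that kind. Of 11 genes of mitochondrial DNA transcription and upkeep Top1mt rose (0.56, SE 0.15, adjusted p = 0.0151), and of 9 regulators Ppargc1a, a coactivator of mitochondrial genes, rose (0.31, SE 0.06, adjusted p = 0.00211). Without pairs Aurkaip1, Top1mt and Ppargc1a did not pass (adjusted p = 0.202, 0.233 and 0.260 by edgeR). In cortex 0 genes of any of these 6 lists were called by edgeR, with 2 higher and 4 lower at an unadjusted p under 0.05. The 2 families most like the members leaned the same way in cortex. Of 83 cytosolic ribosomal protein genes 62 were negative (median -0.06), and of 76 respiratory chain genes 68 were negative (median -0.08). In NPC pairs 2 of 84 cytosolic ribosomal protein genes rose (Rpl12 and Rps2) and 1 fell (Rpl27a). Of 75 respiratory chain genes there, 1 rose and 6 fell, led by Cox6b2 at -0.64 (SE 0.07, adjusted p = 2.08e-05 with pairs and 0.0544 without). Both families were summed highest in control cortex replicate 1, as the members were, at 19008 and 9315 CPM against at most 17904 and 8028 CPM in the other cortex libraries.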

How the data were processed

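Total RNA of 12 mouse libraries was sequenced. Per the submitters' processing notes, reads were aligned with HISAT2 (no version named) to mm10. The authors deposited raw gene-level counts, whole numbers whose totals differ between libraries, and no label states their counting program, annotation or use of strand. Counts were normalised by TMM and filtered by filterByExpr in edgeR 4.0.16 (R 4.3.3). Each comparison was tested with its quasi-likelihood test on all genes that passed, with Benjamini-Hochberg adjustment and calls at an adjusted p under 0.05. Levels are CPM computed from these counts with TMM factors over all libraries. Cortex was fitted without pairs. NPC was fitted with the replicate number as a block, because the plan took same-numbered NPC libraries as pairs. After each group mean was removed, same-numbered NPC libraries correlated across genes at 0.67, 0.62 and 0.60, and those of cortex at -0.08, -0.14 and -0.10. The pairing comes from the numbers in the labels, and the correlations are a check of it. Replicates of a group differed by more than counting noise. The self-test recovered planted changes in simulated counts. These were larger than any rise of a member called in NPC, so recovery of rises that small was not tested.

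Libraries held 26074094 to 36713205 counts, and the spread between libraries limits precision as well as depth. Of 34102 identifiers 34076 matched GENCODE release M21 (lengths, overlaps, 3′ UTRs), and promoters came from RefSeq (GRCm38.p6). Of 77 members 76 passed the filter in cortex (Mrpl40 did not) and 76 in NPC (Mrpl53 did not).

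Members, lists and alternatives were chosen with earlier results of these data known. Named were all called members, the 3 smallest p in each direction, the 5 largest differences between control groups in each direction, the 5 highest and lowest levels per length, and Srsf10, Mrps6 with Slc5a3, Mrps18a to c, Mrps30 and Mrps36. Mrps11, Mrps14 and the called genes of other lists were named after their values were seen, and the motif searches were also chosen then. Alternatives were DESeq2 1.42.0, size factors by RLE, all genes without a filter, the pairs taken out or put in, sex as a covariate, leaving out libraries rich in Ttr, 1 fit of all libraries, a 1.5-fold minimum, leaving out each library or pair, and CPM of the total counts. Added after seeing the data were DESeq2 without pairs and medians over members without exon overlap. Likeness to other genes across libraries was computed and is not reported, since group and pair means leave few independent values. Splicing was not analysed here, and 1 gene of the other lists is not reported here. Figures were drawn with matplotlib 3.10.9.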

Additional observations from a re-analysis of the deposited data

Results flagged for a closer look

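The response of Mrpl34 differed between the systems by the interaction test of edgeR, with -1.43 (log2 fold change in NPC pairs minus that in cortex, adjusted p = 0.00119). Mrpl34 was lower in 3 of 3 libraries labelled knockdown than in any NPC control, while the cortex groups overlapped. The systems also differ in tissue, culture and the way Srsf10 was targeted, which cannot be told apart.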

How the results depend on the processing

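No alternative reversed the direction of a result that passed its test. In cortex 0 members were called under each alternative run, with the replicate block too, and the median of -0.08 was -0.18 without the libraries rich in Ttr. In NPC the 5 calls (4 higher) depended on the pairs. Without the replicate block 1 was called (0 higher), with 1 to 2 calls (0 to 1 higher) when 1 library was left out as well, and DESeq2 without the replicate block called 2 (1 higher). With the replicate block, 1 fit of all libraries called 3 (2 higher), a 1.5-fold minimum 1 (0 higher), and leaving out 1 pair gave 1 to 14 (0 to 13 higher). RLE size factors gave 7, no count filter 6 and DESeq2 4 calls. Over all genes the shares called were 24.7% in the paired test with all libraries, 24.5% with RLE, 17.5% without the filter, 18.9% by DESeq2 with pairs and 7.54% without, 1.89% by edgeR without the replicate block (0.324% to 2.09% with 1 library left out), 9.55% in 1 fit, 0.800% with the 1.5-fold minimum and 11.4% to 30.4% with 1 pair left out. The members' share was below these except with the 1.5-fold minimum and without the replicate block and 1 library, where 1 or 2 calls stand against a low background. The difference between the systems called 5 members by DESeq2 (4 higher) against 1, and 1 to 4 (0 to 3 higher) with 1 library or pair left out, the most without control cortex replicate 2 (945 of 16890 genes called), and 2 without the library labelled cKO replicate 3. The mean summed level of NPC controls was 3293 CPM on total counts. Mrpl34 in NPC and in the interaction passed under each alternative. The rises of Mrpl50, Mrps27, Mrpl18 and Mrpl46 kept their sign under each alternative. None of them passed without pair 3 or, by edgeR with all libraries, without the replicate block, and Mrpl50 passed by DESeq2 without the replicate block (adjusted p = 0.0136). Medians over members without exon overlap were -0.09, 0.04 and 0.15 in cortex, NPC and the difference. Members under 5 CPM in cortex have wide intervals there. Of the named members, 5 that passed no test of their group in either system had values whose sign changed with the libraries. The value of Mrps18b in cortex was 0.24, with an SE of 0.40. With 1 library left out in cortex, Mrps18b ran from -0.036 to 0.44, Mrps18c from -0.088 to 0.13 and Mrps36 from -0.17 to 0.059 on the log2 scale, and Mrps18b was -0.037 without the libraries rich in Ttr. With 1 pair left out in NPC, Mrps6 ran from -0.28 to 0.079, Mrps18b from -0.048 to 0.0011, Mrps18c from -0.25 to 0.24, Mrps30 from -0.0021 to 0.065 and Mrps36 from -0.13 to 0.052. Without the replicate block and 1 library, Mrps6 reached 0.069, Mrps18b 0.024 and 0.0080, Mrps36 0.087, Mrps18c -0.022 and -0.24, and Mrps30 -0.0031.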
